A study of Homo sapiens with 7 samples.

Results

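The 10 genes described here, EPCAM excepted, encode parts of 2 kinds of cell-cell junction, the desmosome and the cadherin-based adherens junction. All 10 were measured in HEK293, an established line from human embryonic kidney. They were chosen by symbol, with earlier results of these data known: the desmosomal cadherins DSC2, DSC3 and DSG2, the plaque proteins DSP, JUP, PKP2 and PKP4, the classical cadherins CDH1 and CDH2, and the epithelial adhesion molecule EPCAM. Each has 1 row on chromosomes 1 to 22 or X of a table of 63655 genes, and all 10 were among the 24822 genes that the authors tested. A further JUP row, on an alternative assembly patch, had 0 FPKM under both headings and was left out.

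The series lowered CNBP, a nucleic acid binding protein with zinc knuckles and a preference for G-rich sequence, and measured total RNA by directional RNA sequencing. The labels give 4 CNBP knockdown samples and 3 control knockdown samples, all of HEK293 cells with FLAG-HA tagged CNBP. The knockdown reagent, its dose and its duration are not stated in the labels, nor is it said whether the samples came from separate cultures. The analysed table holds 1 FPKM (mapped fragments relative to transcript length and library size) for each of 2 conditions, headed siRNA and OE. That siRNA means CNBP knockdown is a reading of the heading and of the design text. The labels do not explain OE, and if it stands for cells that overexpress CNBP, every difference combines overexpression with knockdown. No value per sample was given, so there is no SD or n, depth is unknown, and the spread between samples enters only through the q-values in the authors' deposited table. CNBP itself stood at 45.5 FPKM in siRNA, against 579.8 FPKM in OE.

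Desmosomes join neighbouring epithelial cells and anchor their keratin filaments. Desmocollins and desmogleins, which are cadherins, bridge the gap between the cells, plakoglobin (JUP) and the plakophilins bind their tails, and desmoplakin (DSP) ties this plaque to the keratins. Adherens junctions are built in a like way from a classical cadherin, E-cadherin (CDH1) in most epithelia and N-cadherin (CDH2) in neural and mesenchymal cells, with catenins that link it to actin. HEK293 cells carry a mixture of epithelial, embryonic kidney and neuronal traits.

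The coding starts of 5 of the genes are shown because the series concerns G-rich elements near translation starts, and because UGGAG is known as the core of a CNBP-binding motif. Each line gives the first 100 coding bases of the longest coding transcript in GENCODE 29, with every TGGAG on the coding strand in capitals. DSC3 is given beside DSC2 as its closest relative among the 10 genes.
DSC2: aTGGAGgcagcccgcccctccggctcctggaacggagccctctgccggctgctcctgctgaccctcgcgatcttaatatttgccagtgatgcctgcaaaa
DSC3: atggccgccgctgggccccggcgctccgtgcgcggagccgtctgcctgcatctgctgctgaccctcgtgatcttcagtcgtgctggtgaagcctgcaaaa
JUP: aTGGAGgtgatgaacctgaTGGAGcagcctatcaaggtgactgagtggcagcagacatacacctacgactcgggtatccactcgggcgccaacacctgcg
PKP4: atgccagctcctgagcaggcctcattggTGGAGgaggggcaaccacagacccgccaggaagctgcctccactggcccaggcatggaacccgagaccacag
CDH1: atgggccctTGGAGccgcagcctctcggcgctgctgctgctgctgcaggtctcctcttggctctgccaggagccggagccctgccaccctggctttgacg

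In DSC2 and JUP the start codon itself opens a TGGAG, at base 2 counted from the A of ATG. JUP holds a second TGGAG in this stretch. The match lies at base 29 in PKP4 and at base 10 in CDH1. DSC3 has none in this stretch, and neither do DSG2, DSP, PKP2, CDH2 and EPCAM. Thus 4 of the 10 genes held the motif there, against 28.6% of the 12975 tested coding genes whose mean reached 1 FPKM. A match describes these letters alone and is not a measured binding site.

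Between the conditions, DSC2 was the single gene of the 10 to be called. The authors' deposited table gives a q-value for each tested gene, and a gene was called where it was under 0.05. Thus 1 of 10 was called higher in siRNA and 0 lower, against 0.572% of all tested genes called higher, 0.782% called lower and 1.35% called in either direction. At a looser q of 0.1 the count was still 1 of 10, against 2.32% of all tested genes. The genes were picked with this comparison known, so these counts, and the directions and median that follow, are a description. Nothing is read from them. By value alone, 8 of the 10 genes stood higher in siRNA and 2 stood lower, against 48.7% of all tested genes higher. Their median change was 0.39 on the log2(FPKM + 1) scale, against -0.01 over all tested genes.

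**Figure D1:**
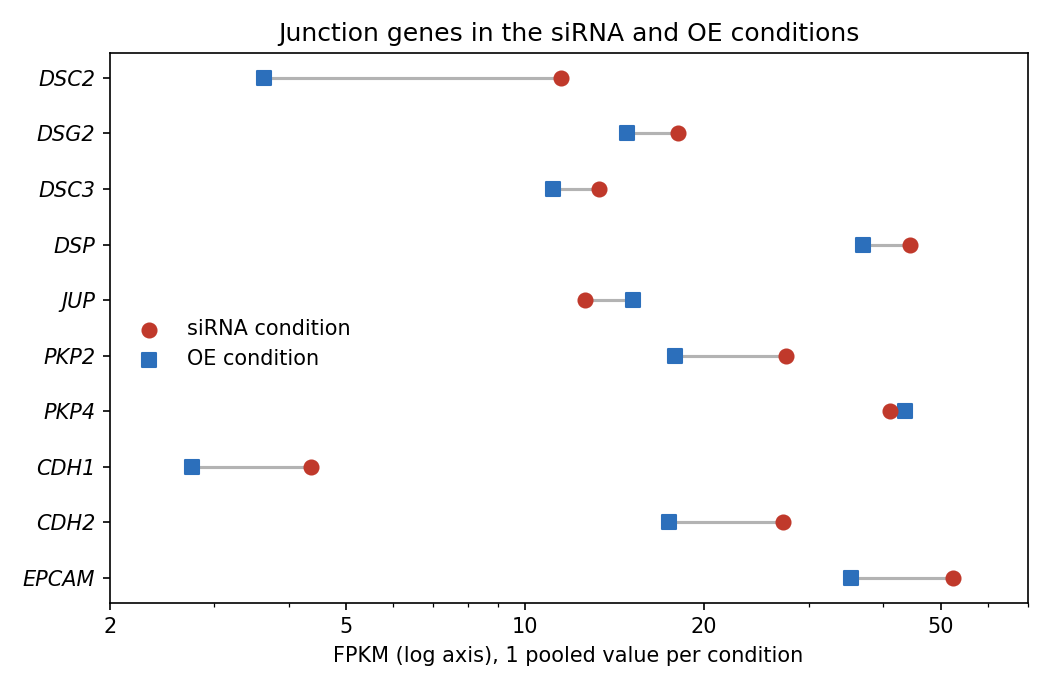
FPKM of each of the 10 junction genes in the siRNA condition (circles) and the OE condition (squares) on a log axis, with 1 pooled value per condition and no error bar because no value per sample was given. DSC2 shows the widest gap, 11.5 FPKM in siRNA against 3.64 FPKM in OE, and JUP and PKP4 are the genes with the lower value in siRNA.

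DSC2, desmocollin 2, is the desmocollin found in nearly all tissues that form desmosomes, the heart included. It stood at 11.5 FPKM in siRNA, against 3.64 FPKM in OE, a 3.16-fold higher value, with q = 0.00791 in the authors' deposited table. Its unadjusted p of 5e-05 in the authors' deposited table is the smallest that table holds, and 157 tested genes share it. Of the 128 genes called higher whose mean reached 1 FPKM, 6 of those not listed at 0 in OE had a ratio at least as large, DSC2 itself counted. On the log2(FPKM + 1) scale its change of 1.43 lay at percentile 98.6 of tested genes whose mean reached 1 FPKM. As DSC2 was picked with this comparison known, nothing is read from these ranks. DSC2 was also the second lowest of the 10 genes in OE, above CDH1 alone.

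DSC3, desmocollin 3, is best known from the lower layers of stratified epithelia. It stood at 13.3 FPKM in siRNA and 11.1 FPKM in OE, with q = 0.975 in the authors' deposited table. DSC2 therefore made up 46.4% of the summed DSC2 and DSC3 FPKM in siRNA, against 24.6% in OE. DSC3 was the more abundant desmocollin in both conditions, 1.16 times DSC2 in siRNA and 3.06 times DSC2 in OE.

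DSG2, desmoglein 2, is the desmoglein of simple epithelia and heart muscle. It stood at 18.1 FPKM in siRNA and 14.8 FPKM in OE, with q = 0.676 in the authors' deposited table. Summed over the 3 desmosomal cadherins, FPKM came to 42.9 in siRNA, against 29.6 in OE. Desmocollins (DSC2 plus DSC3) stood at 1.37 times DSG2 in siRNA and at 0.996 times DSG2 in OE.

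The desmosomal cadherin genes lie side by side on chromosome 18. In the hg19 coordinates of the table the DSC3 locus runs from 28569974 to 28622781, the DSC2 locus from 28645940 to 28742819 and the DSG2 locus from 29078006 to 29136874. The DSC3 and DSC2 loci are 23.2 kb apart, and the stretch from DSC3 to DSG2 spans 567 kb. The desmosomal cadherin genes between them, which are known mainly from stratified epithelia and hair, were at or near 0. DSC1 stood at 0.163 FPKM in siRNA and 0.225 FPKM in OE, DSG3 at 0.0573 and 0.0578 FPKM in siRNA and OE, DSG1 at 0.0122 FPKM in siRNA and listed at 0 in OE, and DSG4 was listed at 0 in both. None of these genes was tested. The called change of DSC2 thus stood beside a DSC3 locus with a ratio of 1.19 and a DSG2 locus with a ratio of 1.22 between siRNA and OE. CDH2 lies on the same chromosome, 2.81 Mb from the DSC3 locus.

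The locus of DSC2 in the table is a bundle that also holds DSC1, a snoU13 copy and 2 genes named by clone. The snoU13 copy stood at 2.65 FPKM in siRNA and 12.6 FPKM in OE, in the opposite direction to DSC2, and was not tested. Whether the authors counted by strand is not stated, so values are uncertain at the 8 member loci that carry another gene. The JUP locus is the fullest, with 7 other genes, among them the translation factor gene EIF1 at 187 FPKM in siRNA and 155 FPKM in OE.

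The promoters of the 3 expressed desmosomal cadherins are shown because DSC2 was called while its neighbours DSC3 and DSG2 were not. Whether their changes differ was not tested. Each line holds the 250 bases before a RefSeq gene start (build GRCh38.p14), 5′ to 3′ on the gene's strand, with E-boxes of the letters CACCTG, or CAGGTG for the same letters on the other strand, in capitals. Such E-boxes are known to be bound by the E-cadherin repressors of the SNAI and ZEB families. The windows are chr18:31102422-31102671 and, for a second start, chr18:31101261-31101510 (both minus strand) for DSC2, chr18:31042743-31042992 (minus strand) for DSC3 and chr18:31497927-31498176 (plus strand) for DSG2. GENCODE places some transcript starts of these genes inside or near the windows.
DSC2: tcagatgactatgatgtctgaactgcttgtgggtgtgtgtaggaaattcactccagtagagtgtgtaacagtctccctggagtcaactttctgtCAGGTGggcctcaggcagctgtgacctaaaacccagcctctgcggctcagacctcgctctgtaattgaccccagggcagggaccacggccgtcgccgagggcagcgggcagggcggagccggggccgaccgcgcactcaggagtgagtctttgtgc
DSC2, second start: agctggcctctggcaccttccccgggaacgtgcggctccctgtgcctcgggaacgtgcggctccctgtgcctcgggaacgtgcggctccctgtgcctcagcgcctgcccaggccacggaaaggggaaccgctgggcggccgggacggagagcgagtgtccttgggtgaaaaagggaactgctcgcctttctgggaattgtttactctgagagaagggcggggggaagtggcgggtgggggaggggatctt
DSC3: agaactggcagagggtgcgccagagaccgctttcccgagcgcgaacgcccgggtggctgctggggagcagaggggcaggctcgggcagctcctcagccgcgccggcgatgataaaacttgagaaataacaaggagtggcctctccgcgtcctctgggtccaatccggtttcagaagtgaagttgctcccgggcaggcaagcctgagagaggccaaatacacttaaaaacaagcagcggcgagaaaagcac
DSG2: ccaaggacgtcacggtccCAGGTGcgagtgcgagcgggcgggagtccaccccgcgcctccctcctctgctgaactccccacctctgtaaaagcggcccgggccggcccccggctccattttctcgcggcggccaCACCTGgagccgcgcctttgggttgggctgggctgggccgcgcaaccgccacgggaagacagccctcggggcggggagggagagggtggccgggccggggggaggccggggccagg

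The first DSC2 window held 1 E-box and the second 0, the DSG2 window held 2 and the DSC3 window 0. RefSeq entries were found for 7 of the 10 genes, namely DSC2, DSG2, DSC3, DSP, JUP, PKP4 and CDH2, and some had a further start, which made 11 windows. An E-box was present in 4 of these 11 windows, those of DSG2 and DSP, 1 of the 2 DSC2 windows and 1 of the 2 JUP windows, against 17.5% of all 35116 windows. The 17.5% was not matched for base content. GC content was 42% in the second CDH2 window and between 59.6% and 78% in the other windows of these genes, against a median of 58% over all windows. PKP2, CDH1 and EPCAM had no entry. A match describes letters only.

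Among the plaque genes, DSP, the desmosome's link to keratin, stood above JUP and PKP2 in both conditions, while PKP4 stood below it in siRNA and above it in OE. DSP was at 44.4 FPKM in siRNA and 37.1 FPKM in OE, with q = 0.804 in the authors' deposited table. Per kilobase, DSP stood at 1.03 times the summed desmosomal cadherins in siRNA and 1.25 times in OE. JUP, plakoglobin, which also serves adherens junctions, was lower in siRNA by value, at 12.6 FPKM in siRNA and 15.2 FPKM in OE (q = 0.999 in the authors' deposited table). Its relative CTNNB1, beta-catenin, stood at 136 FPKM in siRNA and 103 FPKM in OE, which is 10.8 times the JUP level in siRNA and 6.80 times in OE.

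PKP2, plakophilin 2, which links desmosomal cadherins to desmoplakin and is a frequent site of mutation in arrhythmogenic cardiomyopathy, stood at 27.4 FPKM in siRNA and 17.8 FPKM in OE. The ratio was 1.54 and the unadjusted p of 0.01695 in the authors' deposited table became a q of 0.274. PKP4, an armadillo protein found at adherens junctions as well as at desmosomes, was nearly level, at 41.1 FPKM in siRNA and 43.6 FPKM in OE (q = 0.999 in the authors' deposited table). PKP4 was thus 1.50 times as abundant as PKP2 in siRNA and 2.44 times in OE.

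CDH1, E-cadherin, was the lowest of the 10 genes in both conditions, at 4.37 FPKM in siRNA and 2.75 FPKM in OE. Its ratio was 1.59, with q = 0.475 in the authors' deposited table. CDH2, N-cadherin, stood at 27.1 FPKM in siRNA and 17.5 FPKM in OE, a ratio of 1.55 with q = 0.375 in the authors' deposited table. N-cadherin transcript therefore exceeded E-cadherin transcript 6.21-fold in siRNA and 6.35-fold in OE, and CDH1 made up 13.9% of their sum in siRNA and 13.6% in OE. The cells' leading classical cadherin of the pair was thus not the E-cadherin for which the gene group is named.

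EPCAM, an adhesion molecule of simple epithelia and carcinomas that is not itself a desmosome or E-cadherin component, was the most abundant of the 10 genes in siRNA. It stood at 52.4 FPKM in siRNA and 35.3 FPKM in OE, a ratio of 1.48 with q = 0.350 in the authors' deposited table. EPCAM exceeded CDH1 12.0-fold in siRNA and 12.9-fold in OE.

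Before adjustment, 4 of the 10 genes had a p under 0.05 in the authors' deposited table, DSC2, PKP2, EPCAM (p = 0.02885) and CDH2 (p = 0.03315), all with the higher value in siRNA. The share among all tested genes was 10.9% in either direction and 4.51% with the higher value in siRNA. As the genes were picked with this comparison known, nothing is read from that difference. CDH1 lay just outside, at p = 0.0544 in the authors' deposited table. By value alone, the ratio was 3.16 for DSC2, between 1.48 and 1.59 for PKP2, CDH1, CDH2 and EPCAM, and between 0.830 and 1.22 for the others. Whether these ranges differ beyond the spread between samples was not tested.

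**Figure D2:**
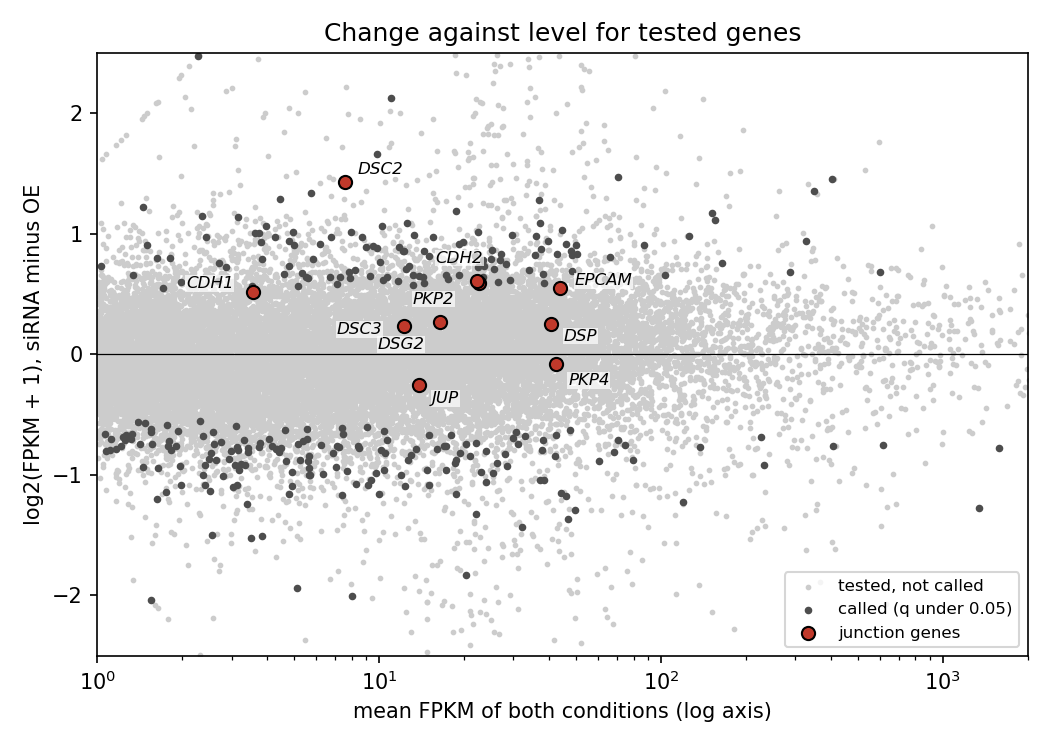
Change on the log2(FPKM + 1) scale, siRNA minus OE, against the mean FPKM of both conditions on a log axis, for tested genes whose mean reached 1 FPKM (308 of 21820 lie outside the axes); dark points are called genes and red points the 10 junction genes. DSC2, at 1.43, stands apart from the other red points, which lie between -0.25 and 0.61.

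DSP, PKP2, CDH2, DSC2 and CDH1 held the same place in the order of levels in both conditions, while EPCAM led in siRNA and PKP4 in OE. In siRNA the order was EPCAM, DSP, PKP4, PKP2, CDH2, DSG2, DSC3, JUP, DSC2 and CDH1. In OE it was PKP4, DSP, EPCAM, PKP2, CDH2, JUP, DSG2, DSC3, DSC2 and CDH1. Without values per sample it cannot be said which neighbours in these orders differ beyond their spread.

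Counted against the median of tested coding genes, most of the transcripts were longer and lower in GC, several of them only slightly. The longest coding transcript had more bases than the median of tested coding genes (3434 bases) for 9 of the 10 genes, with 12325 bases in DSC2 and 1724 bases in EPCAM at the extremes. Its GC content was below the median of 48.6% for 8 genes, with DSC2 lowest at 38.9%, DSC3 at 39.9% and DSG2 at 42.0%. CDH2, PKP2, PKP4, EPCAM and DSP lay nearer the median, between percentiles 37.0 and 47.6 of GC content. CDH1 lay at the median, and JUP was the exception at 61.5% GC, percentile 89.0. In length JUP lay close to the median, at percentile 51.2. TGGAG occurred 8.05 times per kb of coding sequence in JUP, percentile 97.8 of coding genes, 4.07 times in DSC2 and not at all in EPCAM, and 6 of the 10 genes lay above the median of 2.83 per kb.

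Across these data the change moved with GC content, so the values are given beside those of genes with like GC. Spearman's rho between GC content and change was -0.47 over the 10 genes and -0.44 over 12975 coding genes; all points share the same pair of conditions and genes are not replicates. The decile of coding genes that holds DSC2 and DSC3 had a median change of 0.21. Measured against it, DSC2 lay 1.22 above the median and DSC3 0.02 above. JUP, in a decile with a median of -0.16, lay at -0.09 from it. PKP2, CDH1, EPCAM and CDH2 lay 0.53, 0.50, 0.49 and 0.47 above the medians of their deciles, DSP 0.19 and DSG2 0.10 above, and PKP4 at -0.15. The part of base content in these changes was not tested beyond this subtraction.

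**Figure D3:**
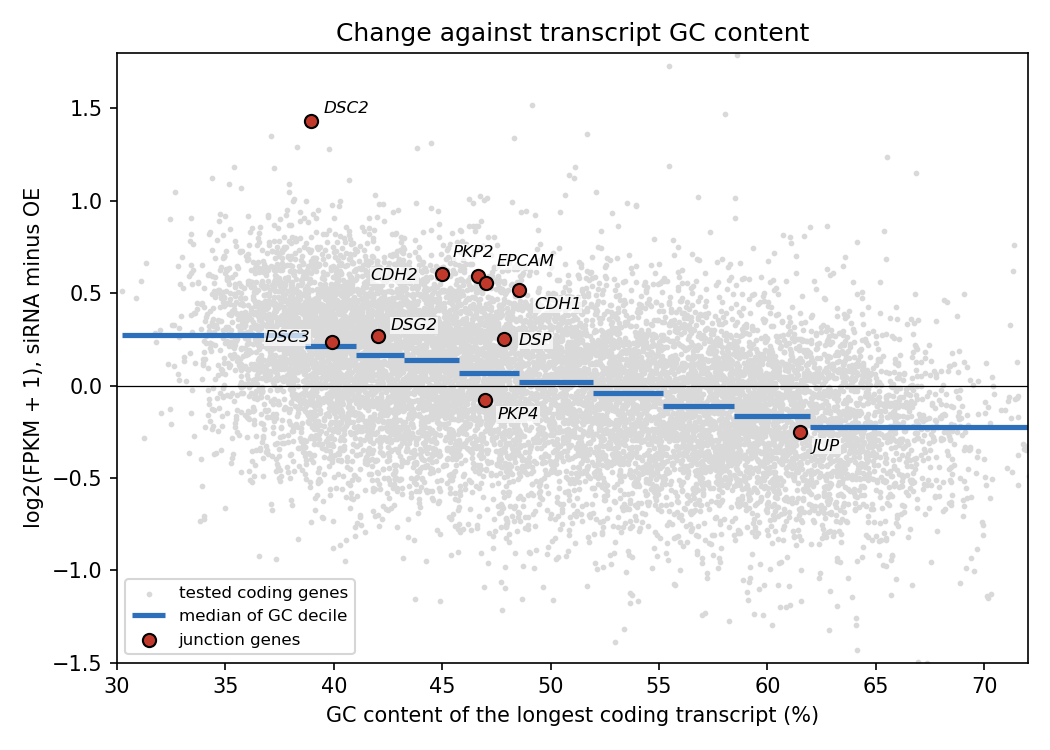
Change on the log2(FPKM + 1) scale, siRNA minus OE, against the GC content of the longest coding transcript in percent; grey points are tested coding genes whose mean reached 1 FPKM (29 lie outside the axes), blue bars the median of each GC decile and red points the 10 junction genes. DSC3 lies 0.02 above its bar and JUP at -0.09 from it, while DSC2 lies 1.22 above.

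The wider junction machinery held no call. Of 125 genes in 10 lists of other junction genes, 92 were tested and 0 were called by the q-values in the authors' deposited table, against the 1.35% of all tested genes. At an unadjusted p under 0.05 there were 9, which is 9.78% of them against 10.9% of all tested genes. Their median change was 0.04, and 50 of the 92 had the higher value in siRNA.

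Of 10 further desmosome and envelope genes, 3 were tested, with a median change of -0.03. PERP, a membrane protein of desmosomes, stood at 16.8 FPKM in siRNA and 15.0 FPKM in OE, and PPL, periplakin, at 0.766 and 0.801 FPKM in siRNA and OE. EVPL, the remaining tested gene, stood at 0.219 FPKM in siRNA and 0.982 FPKM in OE. The plakophilins PKP1 and PKP3, of stratified and of most epithelia, were at most 0.035 FPKM in either condition and not tested. PKP2 was therefore the one classical plakophilin with a tested level.

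Of 20 catenins, nectins and adaptors 17 were tested, with a median change of 0.03. CTNNA1, alpha-catenin, which links cadherin to actin, stood at 226 FPKM in siRNA and 217 FPKM in OE, and the actin cross-linker ACTN4 at 204 FPKM in siRNA and 244 FPKM in OE. Of 17 other classical and type II cadherins 9 were tested, with a median of -0.18. The 2 with the highest mean were CDH8, at 6.83 FPKM in siRNA and 8.64 FPKM in OE, and CDH7, at 5.60 and 5.31 FPKM in siRNA and OE. CDH2 thus exceeded every other cadherin of that list in both conditions.

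Of 22 tight junction genes 19 were tested, with a median of 0.07. The scaffold TJP1, ZO-1, stood at 37.8 FPKM in siRNA and 29.9 FPKM in OE, and the polarity protein gene PARD3 at 35.5 FPKM in siRNA and 30.9 FPKM in OE. Of 7 gap junction genes 5 were tested (median 0.15), led by the connexins GJC1, at 27.1 FPKM in siRNA and 24.3 FPKM in OE, and GJA1, at 7.43 and 5.29 FPKM in siRNA and OE. All 6 hemidesmosome genes were tested (median -0.04), with DST, which encodes a plakin, at 108 FPKM in siRNA and 91.2 FPKM in OE, and the tetraspanin CD151 at 41.9 and 43.9 FPKM in siRNA and OE.

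Transcripts of intermediate filament genes were found, those of keratins among them. Of 10 intermediate filament genes 5 were tested (median 0.05), with vimentin, VIM, at 413 FPKM in siRNA and 398 FPKM in OE. KRT8 stood at 69.4 FPKM in siRNA and 74.7 FPKM in OE; it has many pseudogenes with which reads may have been divided.

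Among regulators, 8 of 10 E-cadherin repressors were tested (median 0.03). TCF3, an E-protein, stood at 75.7 FPKM in siRNA and 99.9 FPKM in OE, and ZEB1, the zinc finger repressor, at 48.4 FPKM in siRNA and 44.5 FPKM in OE. Of 10 epithelial regulators 9 were tested (median 0.08), with KLF5 at 37.0 FPKM in siRNA and 34.9 FPKM in OE and the splicing regulator ESRP2 at 15.9 and 14.3 FPKM in siRNA and OE. Of 13 genes for cadherin and EPCAM proteases, a ubiquitin ligase and EPCAM partners 11 were tested, with a median of 0.24. PSENEN, a gamma-secretase subunit, stood at 45.1 FPKM in siRNA and 51.7 FPKM in OE. The ligase gene CBLL1, whose product Hakai acts on E-cadherin, stood at 49.5 FPKM in siRNA and 32.2 FPKM in OE (p = 0.02705 and q = 0.341 in the authors' deposited table).

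**Figure D4:**
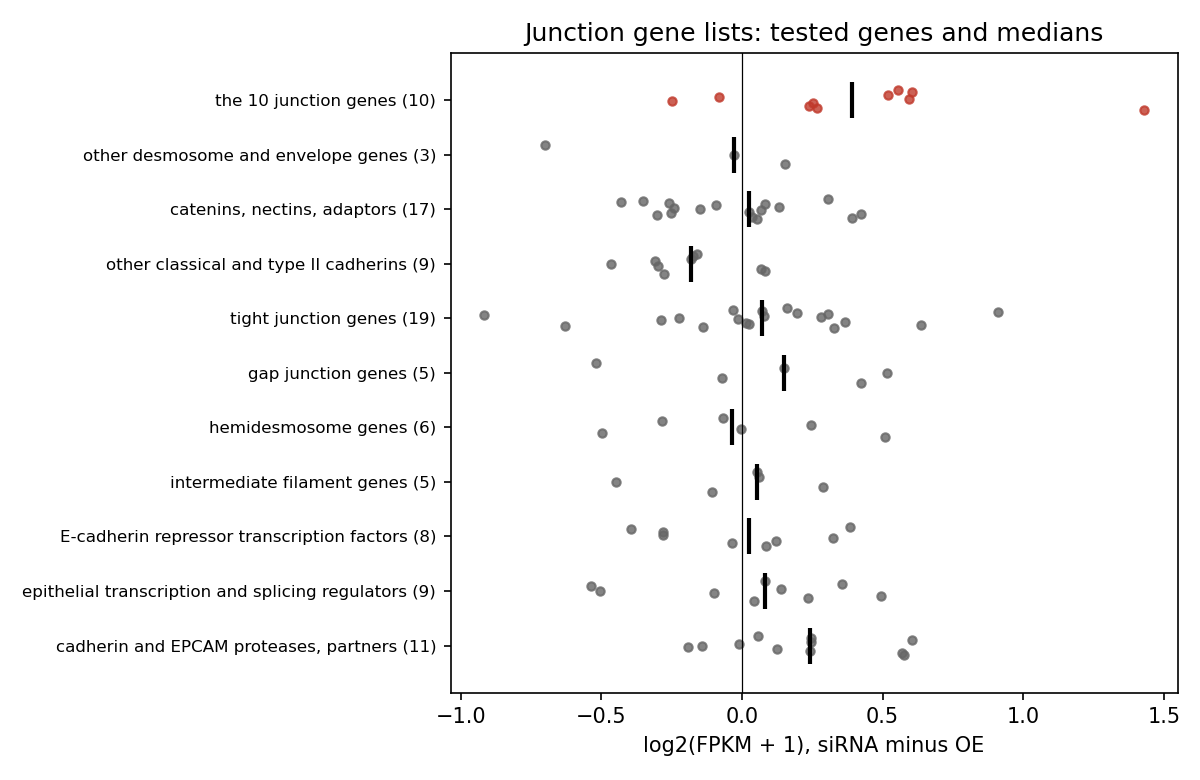
Change on the log2(FPKM + 1) scale, siRNA minus OE, of every tested gene in each list (points) with the list median (black bar) and the number of tested genes in brackets. The 10 junction genes, in red, have a median of 0.39, and the medians of the other lists lie between -0.18 and 0.24. The 10 genes were picked with this comparison known, so nothing is read from the difference.

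The labelled cell line was checked against marker genes. Of the genes listed for HEK293, VIM, KRT8, KRT18, NEFL, EYA1, PAX2 and LHX1 were tested, and NEFM was not. NEFL was called, at 64.7 FPKM in siRNA and 35.9 FPKM in OE (q = 0.00791 in the authors' deposited table). KRT18 stood at 25.0 FPKM in siRNA and 34.5 FPKM in OE. Lower levels were held by PAX2, at 3.71 and 3.43 FPKM in siRNA and OE, EYA1, at 4.53 and 4.52 FPKM, and LHX1, at 1.99 and 1.37 FPKM. For markers of other cell types, summed FPKM in siRNA and OE was 1.07 and 1.44 for 4 blood genes and 0.0779 and 0.105 for 3 keratinocyte genes. It was 1.87 and 2.83 for 3 hepatocyte genes and 8.10 and 11.02 for 3 fibroblast genes. The 2 endothelial genes with a row on the chromosomes used came to 0.220 and 0.0961. The fibroblast gene COL1A1, at 4.79 and 6.60 FPKM in siRNA and OE, stood above PAX2, EYA1 and LHX1 in both conditions. DCN, another fibroblast gene, stood above LHX1, at 2.94 and 4.24 FPKM in siRNA and OE. KRT14 was listed at 0 in siRNA and KRT5 at 0 in OE. In bulk RNA, fewer cells of a type and less RNA per cell cannot be told apart.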

How the data were processed

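RNA sequencing of HEK293 cells was analysed from 1 table of all genes. The authors deposited FPKM values, 1 for each of 2 conditions, together with the q-value and p-value of each gene. TopHat, Cufflinks, Cuffdiff and the hg19 build are named in the submitters' processing notes; their versions and settings, the annotation and the samples behind each condition are not stated there. The spread between samples, and hence the precision of each value, enters only through those q-values.

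Ratios and differences on the log2(FPKM + 1) scale were computed from the FPKM columns, siRNA over OE, because spreadsheet errors had damaged cells of the table's own fold column. The scale understates changes of low genes. Locus starts were printed after adding 1. GENCODE 29 gave the longest coding transcript per gene, joined by gene ID, and RefSeq the promoters; no coordinate was converted between builds. Deciles of GC content were taken over 12975 tested coding genes whose mean reached 1 FPKM. Python 3.11.15, numpy 2.4.6, pandas 2.3.3 and matplotlib 3.10.9 were used, and the decile and adjustment steps were tested on simulated data.

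The members and lists were chosen with earlier results of these data known. Named are all 10 members, CNBP and, in each list with no call, the 2 tested genes with the highest mean FPKM. PKP1, PKP3, EVPL, CTNNB1, COL1A1, DCN, the genes that share a member's locus and the neighbours on chromosome 18 were named after their values were seen. A further marker gene on the HEK293 list is not reported here. The alternatives varied the threshold on q, filters, pseudocount, scaling and base content correction.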

Additional observations from a re-analysis of the deposited data

How the results depend on the processing

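DSC2 stayed called at a q-value under 0.01 and under 0.1, with Benjamini-Hochberg values recomputed from the authors' p-values, among genes whose mean reached 1 FPKM and with a minimum of 2-fold. Its q of 0.00791 in the authors' deposited table and its ratio of 3.16 already fixed most of these outcomes. Nothing further is read from them. Among genes whose mean reached 10 FPKM the count of genes called higher was 0, because DSC2 has a mean of 7.57 FPKM and no longer enters. Its change lay between 1.22 and 1.66 over the pseudocounts, the scaling and the base content correction. The lowest value came from subtracting the GC decile median. None of the 10 genes changed direction under these settings, though DSC3 came to 0.02 and JUP to -0.09 with that subtraction. At a q-value under 0.1, 1 gene of the 10 lists was called, CLDN4, against 2.32% of all tested genes. Among genes whose mean reached 1 FPKM only PERP was left of the other desmosome list. The median of that list turned from -0.03 to 0.15, the change of PERP alone. The median of the E-cadherin repressors turned to -0.08, with fewer genes. No paired analysis was possible because only pooled values of each condition were given, and leaving out a replicate could not be run for the same reason. Depth per sample is unknown.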

Other observations

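The genes in this paragraph were chosen after their values were seen, and none was called. Of the 9 list genes with an unadjusted p under 0.05 in the authors' deposited table, 6 had the higher value in siRNA and 3 the lower. PARD6B, a cell polarity gene, stood at 12.3 FPKM in siRNA and 6.10 FPKM in OE (p = 0.0032, q = 0.117 in the authors' deposited table). OCLN, occludin, a strand protein of tight junctions, stood at 22.6 FPKM in siRNA and 14.1 FPKM in OE, a ratio of 1.60. CLDN4, a claudin, moved the other way by value, at 0.579 FPKM in siRNA and 1.98 FPKM in OE (p = 0.00125, q = 0.0739 in the authors' deposited table). ADAM17, a membrane protease, stood at 12.5 FPKM in siRNA and 8.08 FPKM in OE. GJA1 and CTNNAL1 were higher in siRNA by value, with ratios of 1.40 and 1.35, while ZYX and ESRP1 had ratios of 0.732 and 0.525.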
